A study of Mus musculus with 6 samples.

Results

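The alpha-arrestin family was followed through 6 poly(A) RNA libraries of sorted epidermal stem cells from mouse back skin. Its members here are Arrdc1, Arrdc2, Arrdc3, Arrdc4 and Txnip, taken by symbol, 5 of the 24982 rows of the count matrix. They were chosen by name, with their fitted changes between denervated and normal skin already known, so their values in that contrast are a description and no p-value of theirs is given.

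All mice carried Lgr6-EGFP-Ires-CreERT2, which puts GFP and a tamoxifen-dependent Cre under control of Lgr6, and R26loxP-stop-loxP-tdTom, a Cre-dependent red reporter. They received 20 µg of tamoxifen on postnatal day 42, so the red label marks cells that expressed Lgr6 then, and their descendants. Each of 3 animals, numbered 890, 892 and 899, gave 1 denervated and 1 normal library. Denervated cells come from the left side of the back, 4 weeks after blunt dissection of its skin nerves, and normal cells from the right side of the same mouse, with nerves intact. Both sides shared the animal, the genotype, the tamoxifen, the anaesthesia and the analgesic. The labels give no sex and no sham dissection of the right side, so body side, surgery and nerve loss cannot be told apart.

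Alpha-arrestins share the arrestin fold with the beta-arrestins but act mainly as adaptors of ubiquitin ligases. Most carry PPxY motifs in their tails that bind the WW domains of NEDD4-family ligases and so bring these enzymes to membrane proteins bound for endosomes. Arrdc3 is known for controlling the endosomal traffic of cell surface receptors. Txnip binds thioredoxin and restrains glucose uptake, and its gene and Arrdc4 are glucose-sensitive targets of the transcription factor MondoA with its partner Mlx.

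The promoters of the 2 members called lower, Txnip and Arrdc3, and of Arrdc4, which shares the MondoA input with Txnip, are shown. Whether these sequences bear on the members' changes was not tested. Each line holds the 250 bases before the RefSeq start (GRCm38.p6, the mm10 assembly), on the gene's own strand. Capitals mark matches, on either strand, to CCAAT (the CCAAT box), CACGTG (the palindromic E-box), 2 copies of CACGNG with 5 bases between them (a pair of E-box-like sites) and GTAAACA (a FoxO site).
Txnip, chr3:96557707-96557956, plus strand: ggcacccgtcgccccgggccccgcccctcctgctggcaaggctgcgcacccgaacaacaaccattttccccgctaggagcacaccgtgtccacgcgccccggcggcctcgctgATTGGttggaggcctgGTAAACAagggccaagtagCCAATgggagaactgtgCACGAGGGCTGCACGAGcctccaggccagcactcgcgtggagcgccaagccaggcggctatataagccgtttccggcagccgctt
Arrdc3, chr13:80883134-80883383, plus strand: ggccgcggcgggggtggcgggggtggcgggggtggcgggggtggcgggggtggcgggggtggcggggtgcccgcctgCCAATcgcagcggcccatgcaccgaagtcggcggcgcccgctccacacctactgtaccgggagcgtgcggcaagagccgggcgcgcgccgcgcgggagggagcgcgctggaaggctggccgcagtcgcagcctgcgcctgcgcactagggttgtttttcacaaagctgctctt
Arrdc4, chr7:68749239-68749488, minus strand: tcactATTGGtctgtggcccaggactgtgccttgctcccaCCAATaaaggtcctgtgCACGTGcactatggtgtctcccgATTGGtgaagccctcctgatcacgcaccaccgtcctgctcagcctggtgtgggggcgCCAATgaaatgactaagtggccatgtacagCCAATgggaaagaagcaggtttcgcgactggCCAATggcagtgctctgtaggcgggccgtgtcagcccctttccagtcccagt

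The Txnip window held a pair of E-box-like sites, 85 to 69 bases before the start, a pattern found in 15 of 32851 promoter windows of that length (0.0457%). It also held a FoxO site, 121 to 115 bases before the start (3.17% of windows hold one), and 2 CCAAT boxes. The Arrdc4 window held 1 palindromic E-box, 193 to 188 bases before the start (6.02% of windows), and 6 CCAAT boxes. The Arrdc3 window held 1 CCAAT box, a motif present in 33.8% of windows. Its G and C content was 76.0%, against 58.0% to 66.8% in the windows of the other members. Arrdc3 has 3 promoter windows in the RefSeq table, and the one shown starts where GENCODE places the gene. The full cAMP response element TGACGTCA (1.55% of windows) and the palindromic glucocorticoid element, AGAACA and TGTTCT with 3 bases between (0.00913%), had no match in the 1 window searched for each member, which says only that these letters are not there. No motif overlapped another in the windows printed.

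Libraries held 9610071 to 26167593 counts, and the denervated total was the lower one in 3 of 3 animals. Normal and denervated totals were 26167593 and 9610071 in animal 890, and 20724439 and 14021730 in 892. In 899 they were closest, at 13801154 and 13232950. Whether this gap in depth bears on the differences between sides given below was not tested. CPM are counts relative to the library total. A count of 3 was worth between 0.115 and 0.312 CPM, far below every member. The first principal component of log2 CPM ordered the libraries by animal, with the normal and denervated libraries at 9.73 and 37.6 in animal 890, −0.71 and −0.94 in 892 and −24.5 and −21.1 in 899. Without animal 890, whose denervated library lay farthest out, the fitted log2 fold changes given below were −0.59 for Arrdc3 and −0.72 for Txnip. The keratinocyte label fitted its markers, with Krt5 at 17443 CPM or more in every library. Of 6 fibroblast markers Lum was at 0 and the sum did not exceed 4.58 CPM, and fell short of the normal sum in the denervated library of 3 of 3 animals, as did the melanocyte sum, while the endothelial sum was above it in 3 of 3. Sums of 4 endothelial, 6 Schwann cell and neuron, 4 melanocyte and 4 adipocyte markers did not exceed 3.43 CPM in any library. Pericyte and smooth muscle markers, 4 in all, summed to at most 5.67 CPM. Cdh5 and Emcn among the endothelial markers, Mlana among those of melanocytes, and Plin1, Fabp4 and Cfd among those of adipocytes, were at 0. The 6 myeloid and Langerhans markers summed to 60.5 to 103 CPM on the normal and 80.6 to 103 CPM on the denervated side. The 4 T cell markers summed to 106 to 131 and 91.6 to 155 CPM, most of it Thy1, while Cd3g did not exceed 1.40 CPM. Their part in the members' levels was not tested, and in bulk libraries fewer cells of a type and less RNA per cell cannot be told apart.

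All 5 members passed the filter on low counts. Levels were compared between genes as TPM, which allows for transcript length. On the normal side Txnip stood highest, at 443 ± 42.9 TPM (mean ± SD, n = 3 here and below), followed by Arrdc3 at 107 ± 10.8, Arrdc1 at 60.6 ± 2.46, Arrdc4 at 22.1 ± 6.70 and Arrdc2 at 10.6 ± 1.54. Each neighbour in that order was apart from the next in every normal library. Txnip was first in 6 of 6 libraries, with rank 334 among tested genes by mean TPM, and Arrdc4 and Arrdc2 had ranks 4 and 5 in 6 of 6. On the denervated side the order was held less firmly. Txnip stood at 282 ± 72.2, Arrdc3 at 63.8 ± 13.7, Arrdc1 at 55.5 ± 0.661, Arrdc4 at 26.8 ± 3.48 and Arrdc2 at 8.40 ± 2.17 TPM. There Arrdc3 and Arrdc1 did not differ beyond their spread, and in the denervated library of animal 890 Arrdc3 (52.3 TPM) lay below Arrdc1 (55.9 TPM). Txnip made up 66.9% to 70.2% of the family's summed TPM on the normal side and 58.2% to 68.0% on the denervated side.

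**Figure D1:**
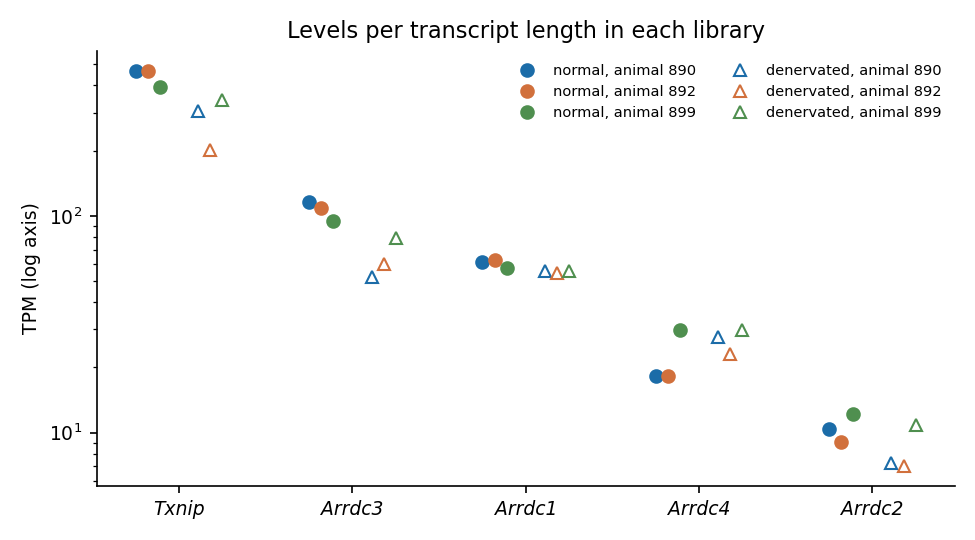
TPM (log axis) of the 5 members, with filled circles for normal and open triangles for denervated libraries, coloured by animal. Txnip lies highest in 6 of 6 libraries and Arrdc2 lowest, and the denervated triangles of Arrdc3 (52.3 to 79.0 TPM) come down to the level of Arrdc1 (54.7 to 55.9 TPM).

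Between the sides of an animal, Arrdc3, an adaptor in receptor traffic, was 1.66-fold lower in the denervated libraries, relative to their scaled totals. Txnip, the inhibitor of thioredoxin, was 1.57-fold lower. Both were among the genes called by edgeR's quasi-likelihood test with the animal as a block (Benjamini-Hochberg adjusted p below 0.05 over all 12310 tested genes). Arrdc1, Arrdc2 and Arrdc4 were not called. So 2 of 5 members were called, both lower, where 3.46% of all tested genes were called and 0.577% were called lower. Nothing is read from that count, since the contrast entered the choice of the family. The median fitted log2 fold change was −0.29 over the 5 members and −0.02 over all tested genes.

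Arrdc3 (chromosome 13, 80883384 to 80896042, plus strand, mm10) carries the family's largest change. In animals 890, 892 and 899, in this order, the normal libraries held 6107, 4765 and 2705 counts of it and the denervated libraries 1059, 1695 and 2007. Scaled with TMM factors these were 229, 223 and 193 CPM on the normal and 114, 123 and 154 CPM on the denervated side. The sides did not overlap, a pattern seen with normal above denervated in 9.21% of tested genes. The means were 215 ± 19.2 and 130 ± 20.7 CPM, and the fitted log2 fold change was −0.73 ± 0.11 (SE). Within animals the log2 difference was −1.01 in 890, −0.85 in 892 and −0.33 in 899, so animal 899 had both the lowest normal and the highest denervated level. Of the 12310 tested genes, 157 had a lower fitted change. Nothing is read from that rank, since this contrast entered the choice of the family. The call was lost without the block (log2 fold change −0.72) and in limma on log2(TPM + 1) (−0.75). It was kept without each animal in turn (−0.93 to −0.59). Those fits hold fewer libraries, yet each gave Arrdc3 a smaller adjusted p than the full fit. A call kept there is therefore no measure of its firmness.

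Txnip (chromosome 3, 96557957 to 96561883, plus strand) was the most abundant member. Its counts in the same order of animals were 19138, 15952 and 8702 on the normal and 4693, 4519 and 6758 on the denervated side. These corresponded to 719, 746 and 622 CPM against 505, 329 and 517 CPM. The sides did not overlap, which held with normal above denervated in 9.21% of tested genes. The means were 696 ± 65.1 and 450 ± 106 CPM, and the fitted log2 fold change was −0.65 ± 0.13 (SE). The denervated library of animal 892 was the lowest of the 6, and the log2 difference was −0.51 in animal 890, −1.18 in 892 and −0.27 in 899. The call rests on animal 892, without which the log2 fold change was −0.37 and Txnip was not called. It was also lost without the block (−0.63), in DESeq2 with the block (−0.64) and in limma (−0.68).

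**Figure D2:**
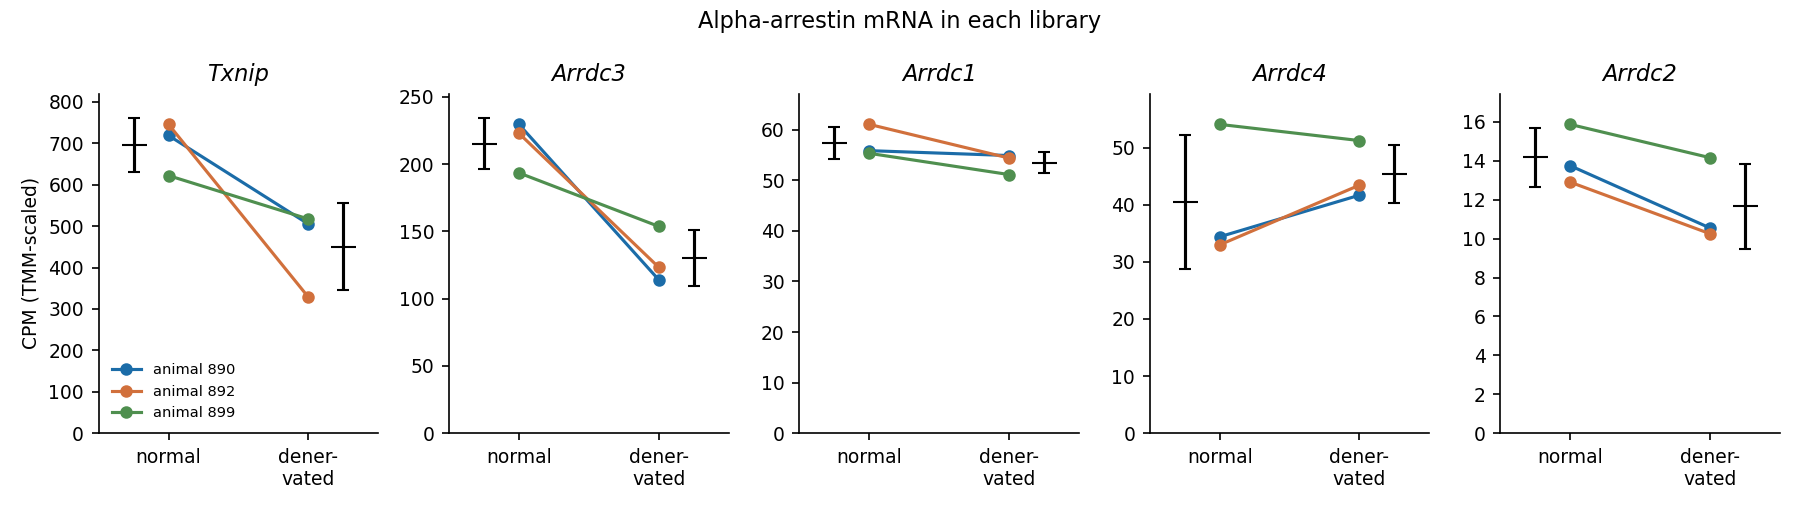
CPM (TMM-scaled, axes from 0) of each member in the normal and denervated library of each animal, joined by a line per animal, with the mean and SD of each side in black. Lines slope down in 3 of 3 animals for Txnip, Arrdc3, Arrdc1 and Arrdc2, a pattern seen in 21.4% of tested genes. Arrdc1 and Arrdc2 were not called. Those of Arrdc4 slope up in animals 890 and 892 and down in 899.

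Arrdc3 and Txnip differed in which animal showed most. The TPM ratio of Txnip to Arrdc3 lay between 4.03 and 4.31 in the 3 normal libraries, and at 5.81, 3.35 and 4.32 in the denervated libraries of 890, 892 and 899. Relative to its normal side, the denervated library of animal 890 was poorer in Arrdc3 than in Txnip, and that of 892 poorer in Txnip than in Arrdc3. Across the 6 libraries, which share 3 animals and hold the difference between sides, log2 CPM of both genes had a Pearson correlation of 0.85. Arrdc2 with Arrdc3 gave 0.73, and Arrdc1 with Arrdc4 gave −0.73. These are descriptions over 6 points that are not independent.

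Arrdc2 (chromosome 8, 70835129 to 70839720, minus strand), another adaptor of the family, was the scarcest member, with 98 to 366 counts per library. It stood at 13.8, 12.9 and 15.9 CPM on the normal and 10.5, 10.3 and 14.2 CPM on the denervated side of 890, 892 and 899. The sides overlapped, because the denervated library of animal 899 lay above the normal libraries of the other animals. Its log2 fold change was −0.29 ± 0.14 (SE), lower in 3 of 3 animals, a pattern seen in 21.4% of tested genes. Its log2 differences were −0.38, −0.33 and −0.16, smallest in animal 899 as for Arrdc3 and Txnip.

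Arrdc1 (chromosome 2, 24925352 to 24935252, minus strand) recruits the ESCRT protein Tsg101 to the plasma membrane, where it drives the shedding of small vesicles. It varied least, at 55.9, 61.1 and 55.3 CPM on the normal and 54.9, 54.4 and 51.1 CPM on the denervated side. All 3 denervated values lay below the lowest normal one, though narrowly, at 54.9 against 55.3 CPM for the closest libraries. Normal above denervated without overlap was seen in 9.21% of tested genes. The log2 differences were −0.03, −0.17 and −0.11. Its log2 fold change was −0.10 ± 0.08 (SE), and it was not called.

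Arrdc4 (chromosome 7, 68736995 to 68749241, minus strand) was the only member with a fitted change above 0. Its levels were 34.4, 33.0 and 54.1 CPM on the normal and 41.7, 43.4 and 51.2 CPM on the denervated side of 890, 892 and 899. The sides overlapped, the log2 differences were 0.28, 0.40 and −0.08, and the log2 fold change of 0.20 ± 0.10 (SE) was not called. Without animal 892 it was 0.11 and without animal 899 it was 0.34. The normal library of animal 899 was the highest of the 6. In the authors' deposited table the log2 fold change of Arrdc4 was 0.34 (lfcSE 0.16), against −0.72 for Arrdc3, −0.65 for Txnip, −0.32 for Arrdc2 and −0.10 for Arrdc1. Those values may rest on other counts and another model than the edgeR fit, so they are not a like-for-like repeat of it.

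**Figure D3:**
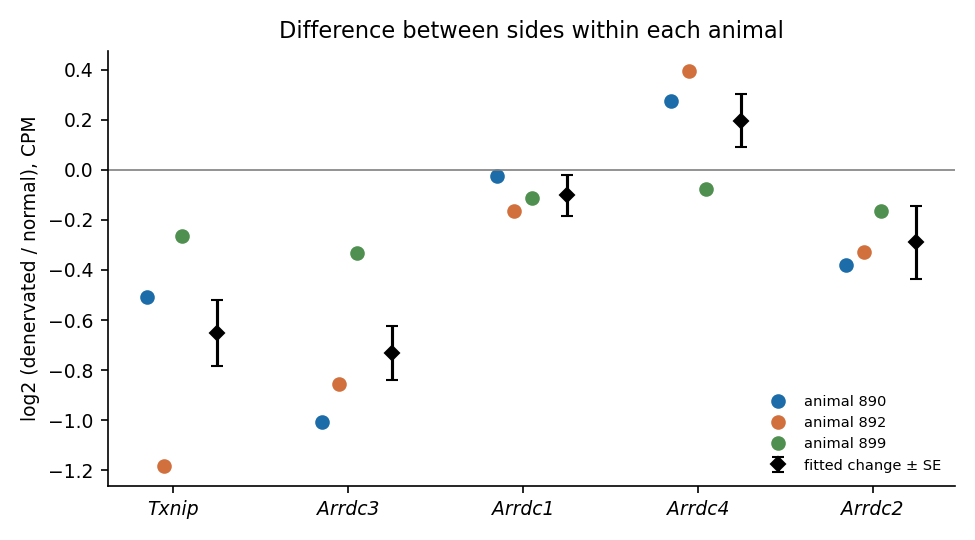
Log2 difference in CPM, denervated over normal, of each member in each animal (coloured points), with the fitted change and its standard error (black diamonds). Animal 899 (green) lies nearest to 0 for Txnip, Arrdc3 and Arrdc2, and Arrdc4 is the only member with a fitted change above 0.

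Arrdc4 was also the member whose transcript length varied. The mean length that the deposited per-sample tables assign to it was 3546 bases in the normal and 2649 bases in the denervated library of animal 890, and 3280 to 3358 bases in the other 4 libraries. Animal 890 gave both the longest and the shortest length, the shortest in the library with the fewest counts. The range over libraries was 0.42 on the log2 scale, wider than in 99.3% of tested genes, against 0.03 for Arrdc3, 0.01 for Arrdc1 and less than that for Txnip and Arrdc2. GENCODE lists 2 protein-coding transcripts of Arrdc4, of 3905 bases in 8 exons and 1129 bases in 5 exons. The length enters the TPM, whose log2 difference in animal 890 was 0.59 where CPM gave 0.28. In animals 892 and 899 TPM gave 0.34 and 0.00.

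**Figure D4:**
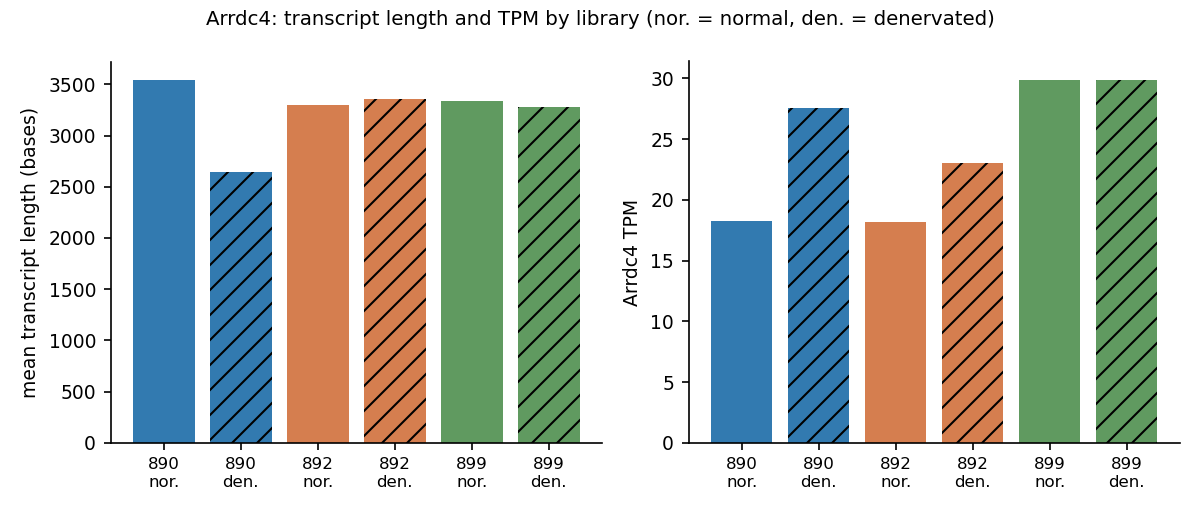
Mean transcript length of Arrdc4 in bases (left) and its TPM (right) in the 6 libraries, coloured by animal, with hatched bars for the denervated side and both axes from 0. The denervated library of animal 890 has the shortest length, 2649 bases, and 27.6 TPM against 18.3 TPM on its normal side.

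Differences among animals, which the choice of the family did not use, were tested with both animal terms jointly in the same edgeR model. It called 465 of 12310 genes (3.78%) and 0 of the 5 members, as did DESeq2's likelihood ratio test for the members. At an unadjusted p below 0.05 there was 1 member, Arrdc4, against 15.5% of all tested genes. Both libraries of animal 899 held more Arrdc4 than the other 4, with a mean of 52.6 CPM against 38.0 in 890 and 38.2 in 892 (edgeR adjusted p = 0.0572). With animal 890 left out the difference between the remaining animals was called (edgeR adjusted p = 0.00111), as it was without 892 (0.0223), but not without 899 (0.997). Those fits hold fewer libraries, so no difference among animals is taken as settled from them. On all libraries DESeq2's likelihood ratio test gave Arrdc4 an adjusted p of 0.0947. Arrdc3 averaged over sides was level, at 172, 173 and 174 CPM in the 3 animals (edgeR adjusted p = 0.921). Txnip averaged 612, 537 and 570 CPM (edgeR adjusted p = 0.649).

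Of 26 adrenoceptor, receptor kinase and cAMP genes, 20 were tested and 1 was called (3.46% of all tested genes were), higher, with a median log2 fold change of 0.05. It was Pde4b, a cAMP-degrading phosphodiesterase gene, which rose from 352 ± 51.0 to 442 ± 61.7 CPM. Slc9a3r1, which encodes a scaffold protein under the plasma membrane, had the next smallest p (42.7 ± 2.37 and 53.5 ± 3.87 CPM, edgeR adjusted p = 0.0772).

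Among relatives with the arrestin fold, 6 of 9 were tested and 0 were called by edgeR with the block. Over all tested genes 3.46% were called, so nothing is read from 0 in a list of this size. The smallest p belonged to Dscr3, a retriever subunit gene (31.3 ± 1.20 and 25.1 ± 4.12 CPM), and to Arrb1, the gene of beta-arrestin 1 (49.4 ± 5.49 and 43.3 ± 8.35 CPM). Arrdc5 was at 0 counts in every library.

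Among partners of the family in ubiquitination and sorting, and among its cargos, each list held 1 called gene. Over all tested genes 3.46% were called, and nothing is read from single calls in lists of this size. Of 16 NEDD4-family ligases and their adaptors, 14 were tested and 1 rose, Nedd4l, a ligase gene known for removing sodium channels from the membrane. Its level went from 83.0 ± 12.9 to 114 ± 8.23 CPM (log2 fold change 0.47 ± 0.08 SE), higher in 3 of 3 animals by 0.51, 0.57 and 0.31. Smurf1 had the next smallest p, at 99.3 ± 3.29 and 119 ± 12.2 CPM. Of 26 ESCRT and endosome genes, all tested, 1 rose, the ESCRT-I gene Vps37b (165 ± 7.08 to 215 ± 22.9 CPM). Stam, of the early sorting complex, stood at 78.9 ± 4.60 and 91.9 ± 8.83 CPM and was not called. Of 10 membrane proteins reported as cargos of alpha-arrestins, 9 were tested and 1 rose, Egfr, the receptor gene of epidermal growth factor (264 ± 11.2 to 326 ± 16.4 CPM). The hemidesmosome integrin gene Itgb4 (1131 ± 48.4 and 1173 ± 49.0 CPM) and Notch1 (601 ± 28.2 and 522 ± 40.2 CPM) were not called.

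The called genes around Txnip went both ways. Of 16 genes of the thioredoxin system and its stress partners, 15 were tested, 2 rose and 1 fell. Over all tested genes 3.46% were called and 0.577% were called lower, and nothing is read from so few calls. Txnrd1, the gene of the reductase that recharges thioredoxin, rose from 120 ± 8.07 to 158 ± 7.34 CPM, and Srxn1, the sulfiredoxin gene, from 21.3 ± 0.672 to 30.0 ± 5.11 CPM (edgeR adjusted p = 0.0451 for Srxn1). Ddit4, an inhibitor of mTORC1 whose product has been found in a complex with Txnip, fell from 77.2 ± 16.2 to 56.7 ± 7.60 CPM. Its log2 differences of −0.41, −0.78 and −0.10 were largest in animal 892, as for Txnip. Of 28 genes of the MondoA network and glucose entry, 27 were tested and 1 rose, near the 3.46% called over all tested genes. It was the hexokinase gene Hk2 (149 ± 23.2 to 189 ± 40.3 CPM, edgeR adjusted p = 0.0453). Mlxip, which encodes MondoA itself, stood at 138 ± 5.96 and 167 ± 2.23 CPM, higher in 3 of 3 animals, and was not called (edgeR adjusted p = 0.0564). In that list 5 genes were called for differences among animals, Hk2 among them, where 3.78% of all tested genes were.

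Among 24 genes known to be induced by glucocorticoids, 22 were tested, 4 fell and 0 rose, with a median log2 fold change of −0.01. Over all tested genes 0.577% were called lower, and 83.3% of the called genes were higher. Those that fell were Tsc22d3, which encodes GILZ (174 ± 13.5 to 137 ± 11.7 CPM), the clock gene Per1 (279 ± 25.4 to 219 ± 19.2 CPM), the metallothionein gene Mt1 (460 ± 94.1 to 367 ± 53.2 CPM) and Ddit4, counted above as well. Per1 and Ddit4 lay close to the threshold (edgeR adjusted p = 0.0498 and 0.0451). Their log2 differences in animal 899 were −0.07 and −0.10. Of 21 FoxO factors and FoxO-induced genes, 20 were tested and 1 rose, the autophagy gene Gabarapl1 (64.8 ± 4.61 to 89.0 ± 4.89 CPM), while Ccng2 had the next smallest p (64.1 ± 10.8 and 50.3 ± 3.07 CPM). The 9 lists together held 154 distinct tested genes, of which 12 were called (7.79%), 8 higher and 4 lower, where 3.46% of all tested genes were called and 0.577% were called lower. They were chosen with earlier results of these data known, so their counts are descriptions.

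**Figure D5:**
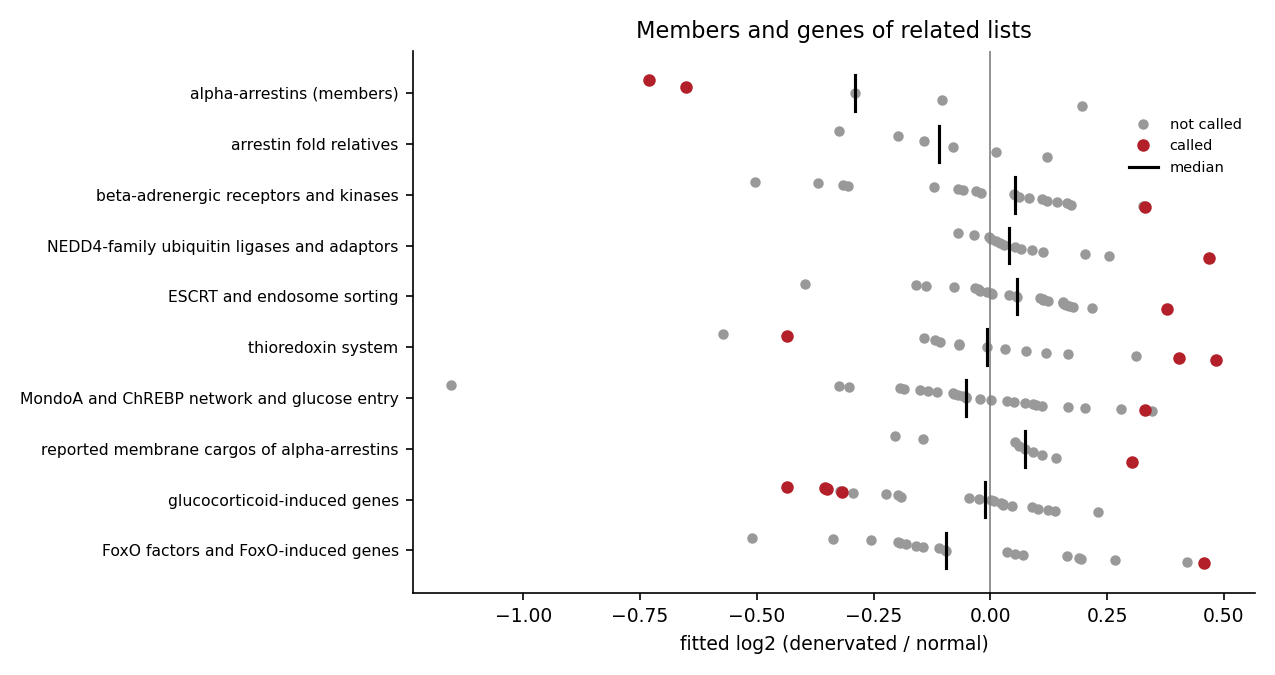
Fitted log2 fold change, denervated over normal, of the 5 members and of the tested genes of 9 related lists, 1 point per gene, red where called by edgeR with the animal as block, with the list's median as a black bar. Arrdc3 (−0.73) and Txnip (−0.65) lie below every called gene of the related lists, and the called genes of the glucocorticoid list are all below 0.

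By Pearson correlation of log2 CPM over the 6 libraries, among 8607 genes of at least 10 CPM, the patterns most like that of Arrdc3 included those of Smarcad1 (0.991) and Morc3 (0.988). For Txnip they were Clca3a2 (0.995), Gramd2 (0.993) and Pnrc2 (0.984). For Arrdc4 they were Peli1 (0.997), Nrip3 (0.994) and Grhl3 (0.991), for Arrdc2 Cdadc1 (0.996), Tmx4 (0.990) and Tnfaip8l3 (0.987), and for Arrdc1 Rgs12 (0.987), Mtx2 (0.986) and Smarcd2 (0.984). None of the genes named here was called by edgeR with the block, and the likeness is a description over libraries that share 3 animals. Taking the highest of 8607 correlations over 6 points gave values near 1 for every member, so nothing is read from their size.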

How the data were processed

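Per the labels' protocols, tdTomato-positive, CD49f-stained cells were sorted and strand-specific poly(A) libraries were made. Per the submitters' processing notes, mm10 was the build, and Salmon 0.11.2 and STAR 2.6.1a were used. For the matrix, the counting tool, the annotation and the use of strand are not given in the sources used. Values were used as deposited. The deposited matrix holds raw counts. The deposited per-sample tables hold estimated counts, TPM and lengths, per the file headers. The authors' deposited comparison gives log2 fold changes, a score (fold change over its error), mean normalised signal and p-values, of which only the fold changes and their errors are used.

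Groups and animal numbers came from the titles. The numbers pair the libraries since each mouse gave a library of either side, per the labels' protocols. Deviations from the group means correlated at 0.356, 0.361 and 0.443 within animals. No library was a duplicate of another of its side (chi-square over its degrees of freedom, 12.5 to 19.3).

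The main test was edgeR 4.0.16 (R 4.3.3), quasi-likelihood, animal as block, TMM factors, filterByExpr (minimum count 10, minimum total 15), fitted on all genes and checked on simulated counts. In the matrix, 26 rows with names turned into dates stayed in totals and are not named. Standard errors are the size of the log2 fold change divided by the root of F. Log2 CPM used a prior count of 2. Alternatives were limma 3.58.1 and DESeq2 1.42.0 (limma on log2(TPM + 1), genes with mean TPM above or at 1, a scale that understates changes of low genes), beside no block, other scalings and filters, estimated counts after rounding to integers, and each animal left out.

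The members and lists were chosen with earlier results of these data known. Named genes are the members, up to 4 called genes of each list or, below 2 called, the 2 with the smallest p, Itgb4, and the 3 genes of highest correlation with each member, leaving out predicted genes. A few genes taken by this rule are not reported. Positions come from GENCODE M21 and promoters from RefSeq (GRCm38.p6), where 5 of 5 members matched.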

Additional observations from a re-analysis of the deposited data

How the results depend on the processing

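Every alternative kept the sign of the fitted change of each of the 5 members. Without the block for the animal, edgeR called 0 genes (1537 at an unadjusted p below 0.05) and 0 members, with Arrdc3 at −0.72 and Txnip at −0.63. With limma on log2(TPM + 1) and on log2(TPM + 0.1) the count of genes was 1 each, that of members 0 each, and Arrdc3 stood at −0.75 and −0.75 and Txnip at −0.68 and −0.68. DESeq2 with the block called 492 genes and 1 member, Arrdc3, with Txnip at −0.64. With no filter 987 genes were called for sides, and for differences among animals 1057 genes and 1 member, Arrdc4. Scaling by library totals instead of TMM called 290 genes, of which 59.3% were higher, against 83.3% of 426, and kept Arrdc3 and Txnip. Leaving out each animal gave 248 to 976 genes and 1 to 2 members, with the lowest gene count without 892 and the highest without 899. Txnip then ranged from −0.84 to −0.37. Nothing is read from calls kept in these fits, which hold fewer libraries. For differences among animals the ranges were 329 to 878 genes and 0 to 1 members. The cause of these changes was not tested. With the block, leaving out 1 library leaves out its animal. In counts over effective length, the normal level of all 5 members was higher than in TPM. It was 68.0 rather than 60.6 for Arrdc1, 12.0 rather than 10.6 for Arrdc2 and 115.5 rather than 106.5 for Arrdc3. For Arrdc4 it was 24.2 rather than 22.1, and for Txnip 482 rather than 443. Depth limits Arrdc2 most, at 98 counts in its lowest library.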
